A study of Mus musculus with 8 samples.

Results

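This account covers 10 genes of steroid hormone synthesis and inactivation in the mouse uterus on embryonic day 8 (E8) of pregnancy, chosen by gene symbol out of 49585 genes counted. They were Star, Cyp11a1, Hsd3b1, Hsd3b6, Akr1c18, Srd5a1, Hsd11b1, Hsd11b2, Cyp19a1 and Hsd17b2. All 8 libraries came from 8-week-old Foxp3DTR females, in which cells that use Foxp3 carry the diphtheria toxin receptor, and the sires were BALB/c. The treated animals received 1 µg of diphtheria toxin (DT) into the peritoneum at E1, E3, E5 and E7, which kills Foxp3-expressing regulatory T cells. The control animals carried the same allele and received PBS. The 4 DT libraries were replicates 1, 3, 4 and 5, and the 4 PBS libraries replicates 1, 2, 4 and 6, each taken to be 1 female. Their titles also end in S1 (PBS replicates 1 and 2), S2 (PBS 4 and 6), S3 (DT 1 and 3) or S4 (DT 4 and 5). What these endings mark is not known. The whole uterus was extracted with the conceptuses inside, so maternal and fetal RNA were read together.

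Steroid hormones are made from cholesterol, which the Star protein moves into mitochondria, where Cyp11a1 cuts it to pregnenolone, and a hydroxysteroid dehydrogenase of the Hsd3b family then turns that into progesterone. Progesterone keeps the uterus in its pregnant state, and in the mouse most of it comes from the ovary, while decidual cells and trophoblast giant cells also hold Cyp11a1. Other enzymes decide how long an active hormone lasts in the tissue: Akr1c18 and Srd5a1 reduce progesterone, Hsd11b2 inactivates glucocorticoid and Hsd11b1 regenerates it, Cyp19a1 makes oestrogen and Hsd17b2 oxidises it to a weaker form.

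Library totals ranged from 94794512 to 109847604 counts. Foxp3, the targeted gene, measured 5.10 to 5.72 CPM (counts per 1000000 counts of the scaled library) in the DT libraries and 4.36 to 5.44 CPM in the PBS libraries, with a log2 change of 0.15 ± 0.10 (SE; edgeR adjusted p = 0.595), so it gave no check of the labels and the groups are called DT-labelled and PBS-labelled. Interferon-gamma response genes did separate the groups, with 9 of 13 higher (edgeR adjusted p under 0.05), a count that ran from 0 to 13 when single libraries were left out. Certain libraries also stood apart in tissue markers. PBS-labelled replicates 1 and 2 stood apart in the summed level of 11 embryo and yolk sac markers. That sum was 3.96 to 10.3 CPM in the DT-labelled libraries and 81.6, 419, 4.88 and 9.62 CPM among the PBS-labelled ones (replicates 1, 2, 4 and 6). The embryonic globin Hba-x measured 18.3 and 120 CPM in those replicates 1 and 2, and 0 to 0.0291 CPM in the other 6 libraries. Of the 9 members of this list that were tested, 7 had a negative log2 fold change and 2, Pou5f1 and T, a positive one. Pou5f1 measured 0.229 and 0.0103 CPM in those replicates 1 and 2, and 0.140 to 1.44 CPM in the other 6 libraries. T was highest in DT-labelled replicate 3, at 1.96 CPM. DT-labelled replicate 1 had the lowest decidual marker sum, 3802 CPM against 7651 to 13398 CPM in the other 7 libraries, and the highest myometrial sum, 3122 CPM against 1322 to 2620 CPM. Of the decidual markers, Prl8a2, Prl3c1, Bmp2, Wnt4, Hand2 and Gja1 were each lowest in that library, whereas Alpl, Hoxa10 and Dkk1 were not. Dkk1 was highest there, at 1.53 CPM, and Alpl, at 86.5 CPM, was exceeded only in DT-labelled replicate 4.

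None of the steroid enzyme genes tested was called different between the groups after adjustment over all genes tested. Of the 10 genes, 9 passed the filter on low counts, and by edgeR's quasi-likelihood test 0 of these 9 were higher and 0 were lower in the DT-labelled uteri at an adjusted p under 0.05, beside 0.326% of the 22693 genes tested (0.322% higher and 0.00441% lower). DESeq2 also called 0 of the 9, beside 1.34% of genes (1.06% higher and 0.28% lower). So did limma voom, beside 0.229% (0.225% higher and 0.00441% lower). Star, Hsd11b2 and Hsd17b2 were lower by edgeR at an unadjusted p under 0.05, which makes 3 of the 9 lower and 0 higher, beside 3.98% of all genes lower at that level and 8.7% in either direction. The median log2 change of the 9 was -0.90, beside 0.01 over all genes, and 7 of the 9 were negative, beside 48.6% of all genes. Without PBS-labelled replicates 1 and 2, a setting chosen after seeing the data, the median of the 9 was 0.10 and 4 were negative. Among these 4, Hsd11b2 had -1.02 and Akr1c18 -0.67. The 2 libraries left out were the highest for Star, Cyp11a1, Akr1c18 and Hsd17b2, so a rise of these 4 log2 changes was fixed in advance. The shift of the median is therefore only a description. For all 9 genes the 4 DT-labelled libraries overlapped the 4 PBS-labelled ones, beside 5.06% of genes without overlap (3.33% higher and 1.73% lower).

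**Figure D1:**
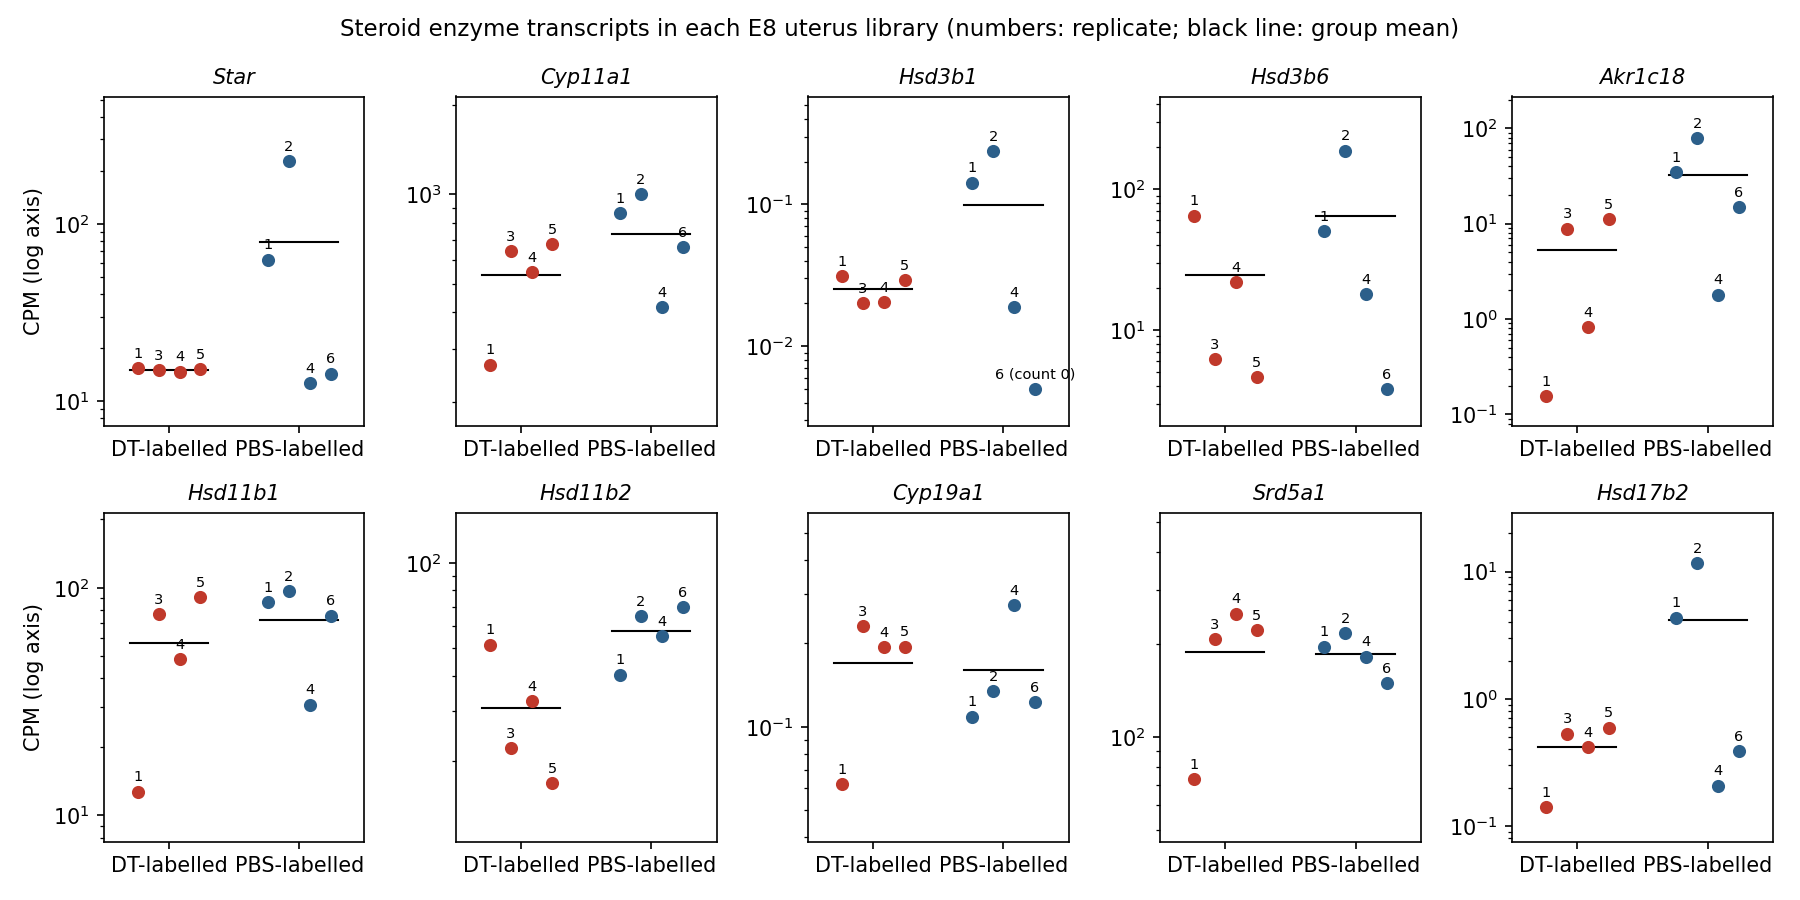
CPM of each of the 10 genes (vertical log axes) in every library, with DT-labelled libraries left and PBS-labelled libraries right; numbers are replicates, black lines group means, and the Hsd3b1 point of PBS-labelled replicate 6, with a count of 0, is drawn at the bottom of its panel. Star and Hsd17b2 were highest in PBS-labelled replicates 1 and 2, whereas Cyp11a1, Hsd11b1 and Srd5a1 were lowest in DT-labelled replicate 1.

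On the scale of CPM per kilobase of exon, which allows levels to be compared between genes, Cyp11a1 was the most abundant of the 10, with a median of 136 over the 8 libraries. Srd5a1 followed with 69.4, Hsd11b2 with 25.0, Hsd11b1 with 17.9, Hsd3b6 with 11.1, Akr1c18 with 8.28 and Star with 3.65 CPM per kilobase. Hsd17b2 had 0.246, Cyp19a1 0.0363 and Hsd3b1 0.0133 CPM per kilobase. Cyp11a1 lay above Srd5a1 in 8 of 8 libraries, and Star lay above Hsd17b2 and Hsd17b2 above Cyp19a1 in 8 of 8. The order in the middle was not fixed: Hsd11b2 exceeded Hsd11b1 in 6 of 8 libraries, Hsd11b1 exceeded Hsd3b6 in 3 of 8, Hsd3b6 exceeded Akr1c18 in 4 of 8 and Akr1c18 exceeded Star in 5 of 8.

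Star, the cholesterol carrier that opens the pathway, was nearly constant in 6 libraries and high in the other 2. Its level was 15.4, 14.9, 14.7 and 15.1 CPM in DT-labelled replicates 1, 3, 4 and 5, against 62.9, 226, 12.6 and 14.3 CPM in PBS-labelled replicates 1, 2, 4 and 6. All DT-labelled libraries thus sat inside the PBS-labelled range. Their coefficient of variation was 1.96%, near the 2.49% that counting alone gives at this depth, whereas that of the PBS-labelled libraries was 128%. The group means were 15 ± 0.294 CPM in DT-labelled and 79.1 ± 101 CPM in PBS-labelled uteri (SD, n = 4 each), a log2 change of -2.40 ± 0.87 (SE; edgeR adjusted p = 0.549). Without PBS-labelled replicates 1 and 2 the log2 fold change was 0.15. The trophoblast marker sum was highest in these 2 libraries. Its 12 markers summed to 96.6, 201, 166 and 205 CPM in the DT-labelled libraries and 450, 854, 140 and 166 CPM in PBS-labelled ones. The placental lactogen Prl3d1 measured 56.1 and 191 CPM in these 2 and 4.52 to 23.4 CPM in the other 6. Gata3, also among the 12, overlapped, at 176 and 136 CPM in these 2 and 77.7 to 150 CPM in the other 6. The part of trophoblast in the Star values was not tested. In whole tissue a change in the number of cells of a type and a change in RNA per cell cannot be told apart. Star (ENSMUSG00000031574) lies on the plus strand of chromosome 8 at 25806555 to 25815982 of GRCm38, and 0% of the 75-base windows of its transcripts occur in another annotated gene.

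Cyp11a1, the side-chain cleavage enzyme that makes pregnenolone, varied 3.75-fold over the 8 libraries. It measured 266, 642, 545 and 679 CPM in the DT-labelled libraries and 864, 998, 417 and 662 CPM in the PBS-labelled libraries. DT-labelled replicate 1 was the lowest of all and PBS-labelled replicates 1 and 2 the highest, with the other 5 libraries interleaved. The means were 533 ± 187 CPM in DT-labelled and 735 ± 253 CPM in PBS-labelled uteri (SD, n = 4 each), a log2 change of -0.46 ± 0.34 (SE; edgeR adjusted p = 0.609), and the 95% interval ran from -1.25 to 0.32. The decidual marker Prl8a2, a prolactin-family gene, ran from 687 CPM in DT-labelled replicate 1 to 8959.7 CPM in PBS-labelled replicate 2, the same libraries that were lowest and highest for Cyp11a1, and its part in the Cyp11a1 values was not tested. Other decidual markers had another order: Prl3c1 measured 74.6 CPM in DT-labelled replicate 1 and 96.7 CPM in PBS-labelled replicate 2, and Alpl and Hoxa10 were lowest in the second of these, at 37.3 and 350.4 CPM. Cyp11a1 (ENSMUSG00000032323) lies on the plus strand of chromosome 9 at 58006411 to 58027023, and 1.48% of its windows are shared with the overlapping gene model Gm17322.

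The next step, from pregnenolone to progesterone, was read almost entirely as Hsd3b6, the isoenzyme that mouse trophoblast giant cells express, and hardly at all as Hsd3b1, the form of the mouse ovary and adrenal. Hsd3b6 measured 65.0, 6.22, 21.9 and 4.64 CPM in the DT-labelled libraries and 50.2, 187, 18.0 and 3.82 CPM in the PBS-labelled libraries. Each group held libraries at both ends of the range. The log2 fold change was -1.41 ± 1.19 (SE; edgeR adjusted p = 0.636), and without PBS-labelled replicate 2 it was 0.025. DT-labelled replicate 1, low in Cyp11a1 and in the trophoblast marker sum, had the second highest Hsd3b6 level of the 8. Gata3 held most of that sum there, 77.7 of 96.6 CPM, and other members of the list differed. Prl3d2 and Prl3d3, at 4.10 and 1.35 CPM, were exceeded only in PBS-labelled replicates 1 and 2. Hand1 and Prl4a1, at 1.46 and 0.0778 CPM, were lowest of the 8. The part of trophoblast in the Hsd3b6 level was not tested. The uterine epithelium marker sum was highest in DT-labelled replicate 1, at 1555 CPM against 196 to 610 CPM in the other 7 libraries, and its part in the Hsd3b6 level was not tested. The serine proteases Prss28 and Prss29 held most of that sum, with 536 and 729 CPM in DT-labelled replicate 1, whereas the epithelial keratin Krt8, at 22.0 CPM there, and the cadherin Cdh1, at 34.8 CPM, were not highest in it. Hsd3b1 had counts of 4, 2, 2 and 3 in DT-labelled uteri, against 13, 23, 2 and 0 in PBS-labelled uteri. It fell below the filter and was not tested, and 6 of the 8 libraries were near or under the 3 counts that an observed 0 allows (0.0233 to 0.0327 CPM).

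The 2 isoenzyme genes are neighbours on the minus strand of chromosome 3, Hsd3b6 (ENSMUSG00000027869) at 98805504 to 98814443 and Hsd3b1 (ENSMUSG00000027871) at 98852194 to 98859794, and 7.61% of the Hsd3b6 windows are shared, with Hsd3b3 and Hsd3b2. Their promoter windows are shown because the levels of the 2 genes lay so far apart. The RefSeq table of GRCm38.p6 held windows of 250 bases before to 50 bases after the start for 7 of the 10 genes. Each line reads 5′ to 3′ on the gene's own strand, and capitals mark motif matches, on either strand, among those searched: AGGTCA for nuclear receptors such as Nr5a2, AGATAA for Gata factors, GCCNNNGGC for AP-2 factors, TATAAA for the core promoter element, CCAAT for its box and TGTTCT for the glucocorticoid and progesterone receptors. Akr1c18 is added as the gene with the widest range between libraries.
Hsd3b6 (chr3:98814394-98814693, minus strand): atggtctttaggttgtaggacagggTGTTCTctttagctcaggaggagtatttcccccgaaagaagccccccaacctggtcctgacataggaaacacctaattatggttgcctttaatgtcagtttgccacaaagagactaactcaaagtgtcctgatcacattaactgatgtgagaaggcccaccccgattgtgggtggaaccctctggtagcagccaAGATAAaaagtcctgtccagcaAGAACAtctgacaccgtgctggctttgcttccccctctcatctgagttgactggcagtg
Hsd3b1 (chr3:98859745-98860044, minus strand): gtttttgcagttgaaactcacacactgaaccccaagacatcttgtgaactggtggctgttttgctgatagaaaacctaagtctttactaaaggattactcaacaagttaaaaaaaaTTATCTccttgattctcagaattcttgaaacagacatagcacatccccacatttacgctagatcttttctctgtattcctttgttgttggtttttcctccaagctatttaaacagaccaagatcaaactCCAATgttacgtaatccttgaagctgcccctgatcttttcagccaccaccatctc
Akr1c18 (chr13:4150597-4150896, minus strand): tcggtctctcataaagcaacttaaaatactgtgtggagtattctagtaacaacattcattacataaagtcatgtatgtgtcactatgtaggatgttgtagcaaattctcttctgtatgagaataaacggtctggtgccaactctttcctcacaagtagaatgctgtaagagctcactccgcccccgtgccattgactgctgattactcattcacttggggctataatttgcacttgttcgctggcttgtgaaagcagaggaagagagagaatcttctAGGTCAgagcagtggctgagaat

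Over 264 aligned positions the Hsd3b6 and Hsd3b1 windows were 61.0% identical. The Hsd3b6 window held AGATAA 31 bases before the start, and 2 steroid receptor motifs, TGTTCT at 225 bases and its reverse complement AGAACA at 9 bases before it. The Hsd3b1 window held the Gata letters on the other strand 134 bases before the start and CCAAT 5 bases before it. In the Akr1c18 window the only match was AGGTCA, at base 28 after the start. Of 32851 mouse windows of this length, 11.2% hold AGATAA, 19.0% TGTTCT, 37.4% CCAAT, 16.3% AGGTCA, 16.6% GCCNNNGGC and 13.6% TATAAA, counting both strands, so single matches of this kind are common.

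Akr1c18, which inactivates progesterone, spanned the widest range of the 10 genes, 508-fold from the lowest to the highest library. Its level was 0.156, 8.83, 0.816 and 11.2 CPM in DT-labelled replicates 1, 3, 4 and 5, against 34.9, 79.1, 1.8 and 14.8 CPM in PBS-labelled replicates 1, 2, 4 and 6. Its 3 highest libraries were PBS-labelled and the 2 lowest DT-labelled, with DT-labelled replicates 3 and 5 above PBS-labelled replicate 4. The log2 fold change was -2.64 ± 1.35 (SE; edgeR adjusted p = 0.571), and the 95% interval ran from -5.73 to 0.45, and without PBS-labelled replicates 1 and 2 it was -0.67. Akr1c18 (ENSMUSG00000021214) lies on the minus strand of chromosome 13 at 4132615 to 4150654 and shares 0% of its windows. Over the 8 libraries its log2 level ran closely with that of Cyp11a1 (Pearson r = 0.95, a description over libraries that also share the differences in tissue markers above).

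Srd5a1, the reductase that acts on progesterone and testosterone, was abundant and similar in 7 libraries. It measured 72.8, 207, 252 and 222 CPM in the DT-labelled libraries and 196, 217, 182 and 149 CPM in the PBS-labelled libraries. Only DT-labelled replicate 1 lay far from the rest, below every other library. The means were 188 ± 79.3 CPM in DT-labelled and 186 ± 28.5 CPM in PBS-labelled uteri (SD, n = 4 each), a log2 change of 0.02 ± 0.34 (SE; edgeR adjusted p = 0.986), with an interval of -0.76 to 0.79 that leaves room for a change in either direction. Srd5a1 (ENSMUSG00000021594) lies on the minus strand of chromosome 13 at 69573449 to 69611442. Some 14.4% of its windows are shared with the overlapping gene model Gm17108, so part of its count could not be placed with certainty.

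The enzymes of glucocorticoid inactivation and regeneration did not run together over the libraries. Hsd11b2, which inactivates corticosterone and shields tissues from it, measured 51.5, 22.3, 32.6 and 16.8 CPM in the DT-labelled libraries and 40.4, 64.9, 55.0 and 69.8 CPM in the PBS-labelled libraries. DT-labelled replicates 3, 4 and 5 lay below all 4 PBS-labelled libraries, and DT-labelled replicate 1 lay among them. The means were 30.8 ± 15.3 CPM in DT-labelled and 57.5 ± 13.0 CPM in PBS-labelled uteri (SD, n = 4 each), a log2 change of -0.90 ± 0.34 (SE; edgeR adjusted p = 0.553), and the 95% interval ran from -1.68 to -0.12. Without PBS-labelled replicates 1 and 2 it was -1.02, and without them and DT-labelled replicate 1 it was -1.39. Over every setting tried it ran from -1.39 to -0.21. Its adjusted p stayed above the threshold in every setting tried, between 0.182 and 1. Hsd11b2 (ENSMUSG00000031891) lies on the plus strand of chromosome 8 at 105518755 to 105523988 and shares 0% of its windows.

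Hsd11b1, which regenerates active glucocorticoid, measured 12.7, 76.8, 48.7 and 90.9 CPM in the DT-labelled libraries and 86.4, 96.6, 30.7 and 75.4 CPM in the PBS-labelled libraries. The lowest value was again DT-labelled replicate 1, followed by PBS-labelled replicate 4. The log2 fold change was -0.34 ± 0.57 (SE; edgeR adjusted p = 0.80), and without DT-labelled replicate 1 it was -0.00017. The ratio of Hsd11b2 to Hsd11b1 per exon length was 9.36, 0.670, 1.55 and 0.427 in DT-labelled uteri, against 1.08, 1.55, 4.15 and 2.14 in PBS-labelled uteri. Inactivating enzyme RNA was therefore in excess in 2 DT-labelled and 4 PBS-labelled libraries. The mean log2 ratio was 0.51 ± 1.97 in DT-labelled and 0.97 ± 0.82 in PBS-labelled uteri (SD, n = 4 each), and the difference of -0.46 was within the spread (two-sided exact permutation p = 0.657, adjusted p = 0.686 over the 3 ratios tested). Hsd11b1 (ENSMUSG00000016194) lies on the minus strand of chromosome 1 at 193221634 to 193264075 and shares 0% of its windows.

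**Figure D2:**
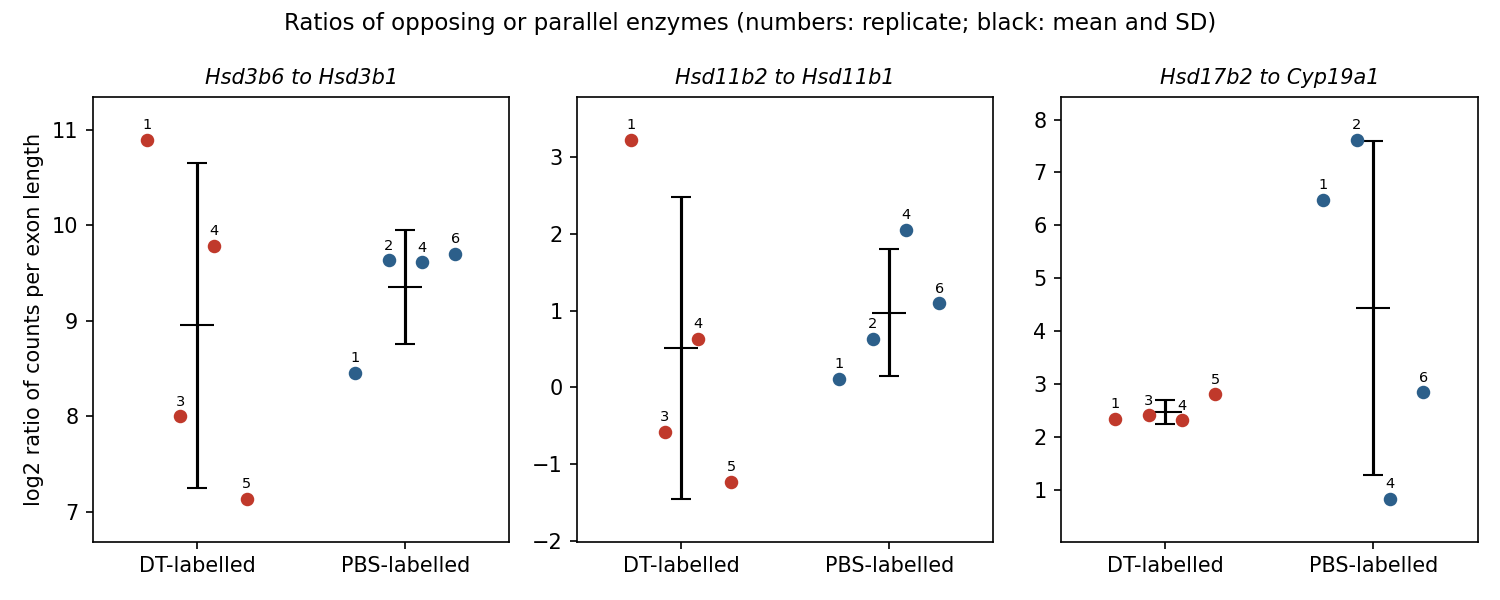
Log2 ratio of counts per exon length (vertical axes) for 3 enzyme pairs in each library, DT-labelled left and PBS-labelled right; numbers are replicates and black marks the mean and SD of 4 libraries. The Hsd11b2 to Hsd11b1 ratio ran from -1.23 to 3.23 in the DT-labelled libraries, and the Hsd17b2 to Cyp19a1 ratio was high only in PBS-labelled replicates 1 and 2.

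Aromatase RNA was barely read. Cyp19a1, which encodes it, had counts of 8, 23, 19 and 20 in DT-labelled uteri, against 10, 13, 29 and 13 in PBS-labelled uteri, or 0.0622 to 0.230 CPM and 0.109 to 0.274 CPM. The groups overlapped throughout, with a log2 change of 0.06 ± 0.45 (SE; edgeR adjusted p = 0.959), and at these counts a difference within the interval of -0.98 to 1.10 was not detectable. Hsd17b2, which oxidises oestradiol and testosterone, measured 0.140, 0.530, 0.418 and 0.592 CPM in the DT-labelled libraries and 4.34, 11.7, 0.208 and 0.387 CPM in the PBS-labelled libraries. As with Star, the high values were those of PBS-labelled replicates 1 and 2, and the other 6 libraries overlapped. Hsd17b2 had the most negative log2 change of the 9 genes, -3.31 ± 1.2 (SE; edgeR adjusted p = 0.546), and without those 2 libraries it was 0.48. The embryo and yolk sac marker sum was also highest in these 2 libraries, and its part in the Hsd17b2 values was not tested.

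The other 2 ratios also stayed within the spread. The log2 ratio of Hsd17b2 to Cyp19a1 averaged 2.48 ± 0.23 in DT-labelled and 4.45 ± 3.15 in PBS-labelled uteri (SD, n = 4 each; two-sided exact permutation p = 0.314, adjusted p = 0.686). The log2 ratio of Hsd3b6 to Hsd3b1 averaged 8.96 ± 1.70 in DT-labelled and 9.35 ± 0.60 in PBS-labelled uteri (two-sided exact permutation p = 0.686, adjusted p = 0.686). This ratio rests on 0 to 4 Hsd3b1 counts in 6 libraries, so its size there is approximate. With 4 libraries against 4 the smallest p this test can give is 0.0286. Cyp19a1 (ENSMUSG00000032274) lies on the minus strand of chromosome 9 at 54165937 to 54268110, and Hsd17b2 (ENSMUSG00000031844) on the plus strand of chromosome 8 at 117701904 to 117759027. Both share 0% of their windows.

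**Figure D3:**
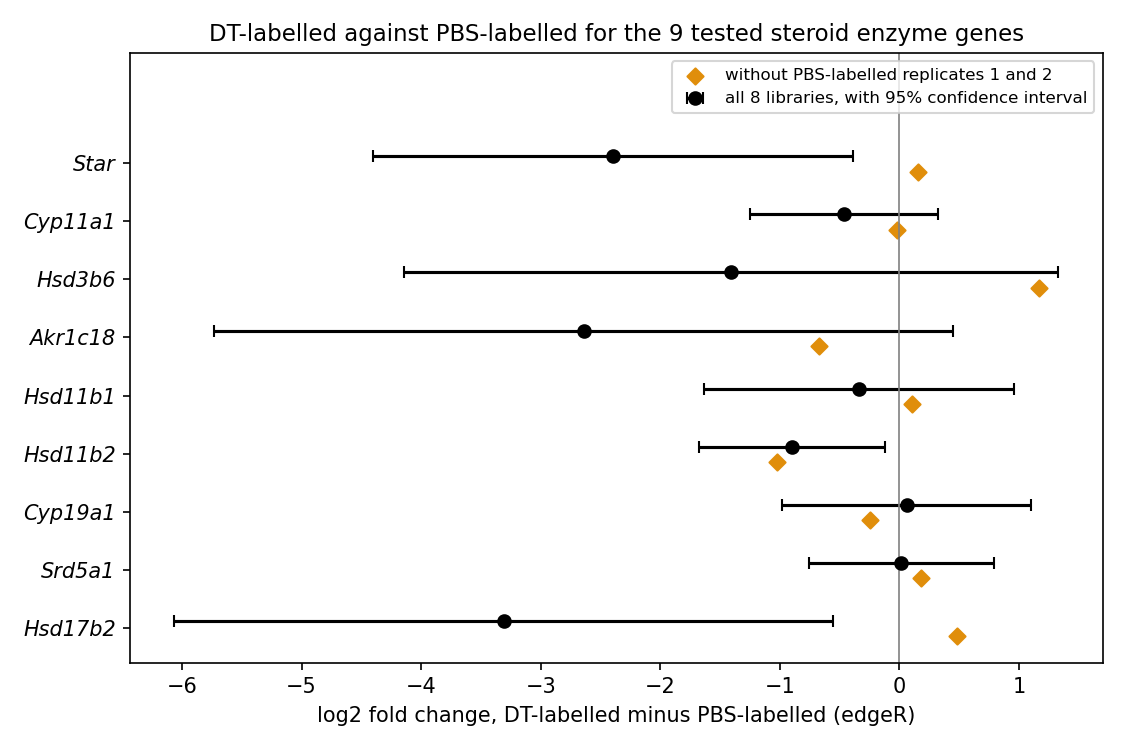
Log2 fold change, DT-labelled minus PBS-labelled, of the 9 tested genes; black points and bars give the edgeR estimate from all 8 libraries with its 95% confidence interval, and orange diamonds the estimate without PBS-labelled replicates 1 and 2. The diamonds of Star and Hsd17b2 lie at 0.15 and 0.48, while that of Hsd11b2 stays at -1.02.

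The spread between libraries was wide for 4 of these genes. Over all 8 libraries, with both groups pooled, the coefficient of variation was 158% for Star, 138% for Hsd3b6, 141% for Akr1c18 and 177% for Hsd17b2. Pooling lets any group difference enter this spread. Within the DT-labelled and PBS-labelled groups it was 1.96% and 128% for Star and 115% and 129% for Hsd3b6. For Akr1c18 it was 106% and 104%, and for Hsd17b2 47.6% and 129%. Over all 8 libraries each of these 4 exceeded at least 99.8% of the 500 genes nearest to it in mean level, whose medians were 9.47%, 8.97%, 10.8% and 20.5%. Hsd11b1 at 47.2% and Hsd11b2 at 44.0% both lay at the 97.4th percentile of their neighbours, Srd5a1 at 29.4% at the 88.6th and Cyp19a1 at 42.4% at the 66th. Cyp11a1, near the top of the abundance range, varied by 36.7% and lay at the 88.8th percentile of 375 neighbours. These percentiles are descriptions, since PBS-labelled replicates 1 and 2 and DT-labelled replicate 1 entered every gene's spread.

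**Figure D4:**
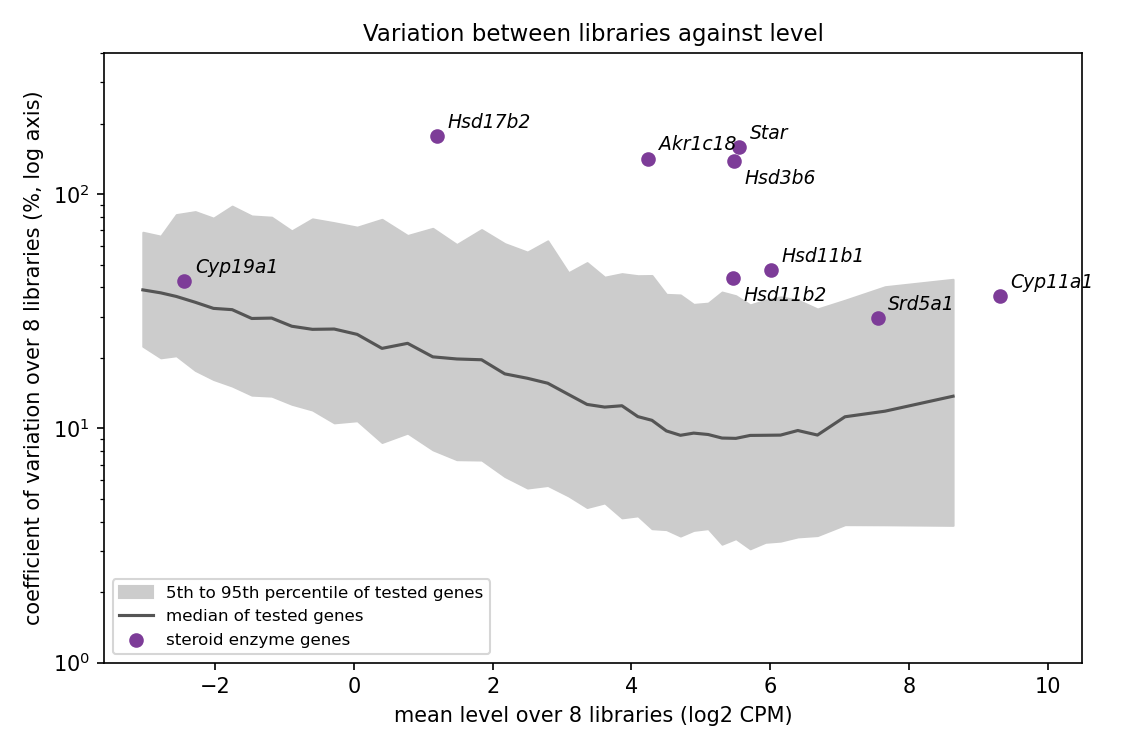
Coefficient of variation over the 8 libraries (vertical log axis, percent) against mean level (horizontal axis, log2 CPM) for the 9 tested genes (purple), with the median and the 5th to 95th percentile range of all tested genes in 40 bins of level (grey). Star, Hsd3b6, Akr1c18 and Hsd17b2, at 138% to 177%, lie far above the grey band, and Hsd11b1 and Hsd11b2 just above it.

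The genes whose log2 CPM ran most closely with each enzyme over the 8 libraries differed by enzyme. For Star they were Dsp, which encodes the junction protein desmoplakin, the epithelial keratin Krt7 and Mthfd1l (Pearson r = 0.997, 0.995 and 0.994). For Hsd17b2 they were Pramef12, the fetal growth factor Igf2 and its mRNA-binding protein Igf2bp3 (r = 0.996, 0.995 and 0.994). Cyp11a1 ran with Fbxw7, the collagen-modifying enzyme Plod2 and Ctla2b (r = 0.997, 0.995 and 0.995), Hsd11b1 with Mbd2, Gskip and Coq10a (r = 0.999, 0.997 and 0.997), and Akr1c18 with Wnk1, Kidins220 and Calu (r = 0.996, 0.994 and 0.993). Hsd3b6 ran with Pkp2, which encodes the desmosomal protein plakophilin, Epn3 and Ntn1 (r = 0.986, 0.978 and 0.971). Srd5a1 ran with Kctd5, Rex1bd and Mrpl54 (r = 0.981, 0.967 and 0.966), Cyp19a1 with Mlst8, Ppp1r14c and C1d (r = 0.978, 0.974 and 0.963), and Hsd11b2 with Sox5, Fign and AI464131 (r = 0.968, 0.966 and 0.954). These are the highest of about 13828 correlations each, over 8 points that share library composition, and serve only as a description. Between the enzymes themselves, Cyp11a1 and Hsd11b1 ran together (r = 0.96), as did Star and Hsd17b2 (r = 0.94), whereas Hsd11b2 and Hsd11b1 had r = -0.28.

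**Figure D5:**
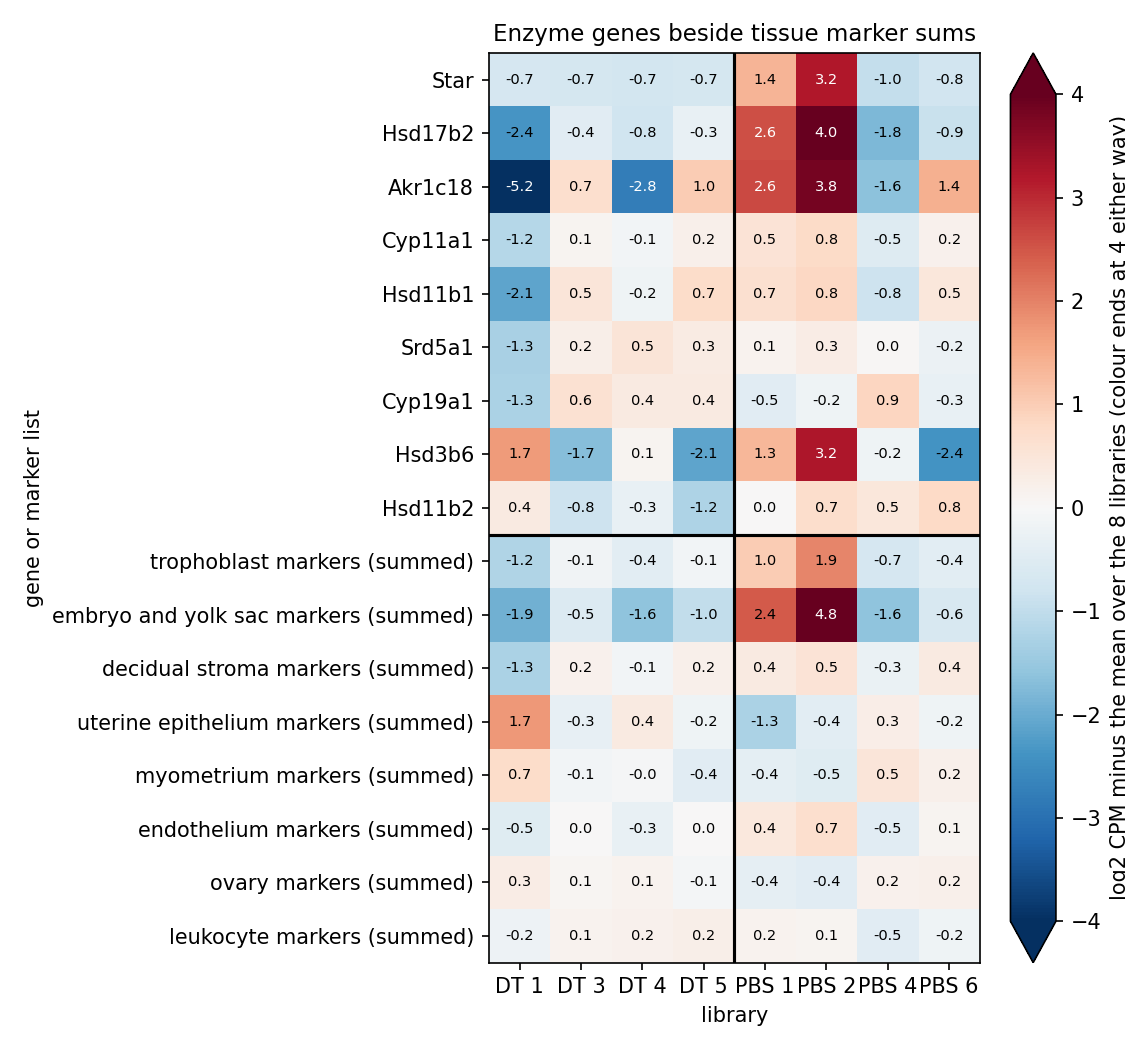
Log2 CPM minus its mean over the 8 libraries, for the 9 tested genes (upper rows) and for summed tissue marker lists (lower rows), by library, DT-labelled left of PBS-labelled. Star and Hsd17b2 are high where the embryo and yolk sac marker sum is, in PBS-labelled replicates 1 and 2, while Hsd3b6 is also high in DT-labelled replicate 1.

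Markers of other steroid-making organs were low, with exceptions. Of the 8 ovarian markers, the gonadotropin receptors Lhcgr and Fshr had at most 5 and 3 counts in any library, and the oocyte genes Zp2 and Oosp1 at most 2 and 1. Inha, Gdf9 and Amh passed the filter, with 148 to 399, 30 to 57 and 18 to 30 counts, and the 8 summed to 2.96 to 3.78 CPM in the DT-labelled and 2.28 to 3.58 CPM in the PBS-labelled libraries. Mc2r, the adrenal receptor for corticotropin, had at most 11 counts, and the adrenal marker Akr1b7 had 24 to 102. Cyp11b1, listed as an adrenal marker for its part in corticosterone synthesis, was nevertheless read at 23.8 to 86.7 CPM in the DT-labelled and 46.4 to 82.7 CPM in the PBS-labelled libraries (log2 fold change -0.19 ± 0.35, SE; edgeR adjusted p = 0.817), lowest in DT-labelled replicate 1 and highest in DT-labelled replicate 4. Cyp21a1, the step before it in that pathway, stayed at 0.0408 to 0.30 CPM in the DT-labelled and 0.189 to 0.261 CPM in the PBS-labelled libraries.

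The wider pathway also held no called gene. In 6 lists of supply, partner, enzyme, regulator and receptor genes, edgeR called 0 of 68 tested genes in either direction, and DESeq2 and limma voom also called 0. At an unadjusted p under 0.05 edgeR gave 3 of the 68 as higher, 10 as lower, beside 4.72% and 3.98% of all genes. In the cholesterol supply list, 17 of 17 genes were tested and the median log2 fold change was -0.26. Hmgcs1, an enzyme of cholesterol synthesis, had a log2 change of -0.45 ± 0.15 (SE; edgeR adjusted p = 0.509), and the lipase gene Lipe one of 0.26 ± 0.09 (edgeR adjusted p = 0.54). For Hmgcs1 the groups did not overlap, at 84.0 to 92.2 CPM in the DT-labelled and 93.6 to 153 CPM in the PBS-labelled libraries. Of all genes, 1.73% were lower without overlap. Among the 6 electron and cofactor partners, all 6 had a negative log2 fold change (beside 48.6% of all genes), with a median of -0.26. For 5 of the 6, H6pd excepted, PBS-labelled replicates 1 and 2 were the highest of the 8 libraries. H6pd, which supplies the cofactor that Hsd11b1 uses, had -0.29 ± 0.09 (SE; edgeR adjusted p = 0.486), the electron carrier Fdx1 had -0.79 ± 0.31 (edgeR adjusted p = 0.561) and Cyb5b had -0.23 ± 0.10 (edgeR adjusted p = 0.571). Fdx1, which feeds electrons to Cyp11a1, measured 18.0, 18.4, 20.5 and 18.8 CPM in the DT-labelled libraries and 34.3, 56.0, 20.8 and 19.8 CPM in the PBS-labelled libraries, high in the same 2 libraries as Star.

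Among other steroid-forming enzymes, 9 of 16 were tested, with a median log2 change of -0.25. Cyp17a1, which carries progestins on towards androgens, measured 0.0156, 0.969, 0.184 and 1.08 CPM in the DT-labelled libraries and 16.7, 53.5, 0.085 and 0.803 CPM in the PBS-labelled libraries, a log2 change of -5.00 ± 1.8 (SE; edgeR adjusted p = 0.546). Its high values were again confined to PBS-labelled replicates 1 and 2 among these 8 libraries. Hsd17b7 measured 19.1 to 25.1 CPM in the DT-labelled libraries and 56.8, 63.5, 21.7 and 30.3 CPM in the PBS-labelled libraries, high in the same replicates 1 and 2 (log2 change -0.98 ± 0.33, edgeR adjusted p = 0.521). Hsd17b12 had a log2 change of -0.25 ± 0.09 (edgeR adjusted p = 0.546). Its groups did not overlap either, at 51.7 to 61.9 CPM in the DT-labelled and 63.4 to 76.3 CPM in the PBS-labelled libraries, beside 1.73% of all genes. Of the inactivating and conjugating enzymes, 15 of 23 were tested, with a median of -0.01. The oestrogen sulphotransferase Sult1e1 measured 0.0156 to 0.240 CPM in the DT-labelled and 0.708, 2.00, 0.0378 and 0.0945 CPM in the PBS-labelled libraries (log2 fold change -2.27 ± 1.16, SE; edgeR adjusted p = 0.571). Hsd17b14 had a log2 change of 0.49 ± 0.21 and Hsd17b11 one of -0.19 ± 0.09 (edgeR adjusted p = 0.571 for both).

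Of 13 transcriptional regulators of steroidogenesis, 10 were tested (median log2 fold change 0.01). Nr5a1, the master regulator of gonad and adrenal, had at most 10 counts in any library and was not tested. Its relative Nr5a2 measured 6.38, 4.17, 4.52 and 3.81 CPM in the DT-labelled libraries and 2.93, 2.31, 3.80 and 3.73 CPM in the PBS-labelled libraries (log2 fold change 0.56 ± 0.22, SE; edgeR adjusted p = 0.558). The groups did not overlap, by a margin of 3.81 against 3.80 CPM, beside 3.33% of all genes higher without overlap. Gata4 had a log2 change of -1.81 ± 0.81 (edgeR adjusted p = 0.571) and the trophoblast regulator Tfap2c one of -0.86 ± 0.58 (edgeR adjusted p = 0.588). Of 13 receptors, co-chaperones and carriers, 11 were tested, with a median of 0.15. The glucocorticoid receptor Nr3c1 had a log2 change of 0.29 ± 0.13, the progesterone receptor co-chaperone Fkbp4 one of 0.55 ± 0.28 and the membrane protein Pgrmc1 one of -0.22 ± 0.09 (SE; edgeR adjusted p = 0.571 for all 3).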

How the data were processed

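Total RNA of the whole pregnant uterus was profiled by RNA-seq, as Kapa mRNA hyperprep libraries read on a NextSeq 500 as pairs of about 75 bases, per the labels' protocols. The deposited values are raw read counts for each Ensembl gene, with no normalization by the authors. The tools named, per the submitters' processing notes, are featureCounts, HISAT2, Trimmomatic, DESeq2 and SAMtools, with the build GRCm38. Versions, annotation and strand setting were not found in the sources, so reads of overlapping or near-identical genes could not be told apart.

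The series table matched the per-library tables in every cell (0 differed). Of 49585 IDs, 49326 matched GENCODE M21 (GRCm38), and each of the 10 symbols matched 1 ID. Over the 28 pairs of libraries chi-square divided by its degrees of freedom was at least 28.8, so no library was counted as a copy of another. Depth was 94794512 to 109847604 counts per library, and limits on counts of 0 cover counting error only.

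Genes passing filterByExpr (minimum count 10, total 15) were scaled by TMM in edgeR 4.0.16 (R 4.3.3). DT was set against PBS by its robust quasi-likelihood test, two-sided, without covariates, and Benjamini-Hochberg adjustment ran over 22693 genes at a threshold of 0.05. DESeq2 1.42.0, limma 3.58.1 (voom), other scalings, no filter and leaving out libraries were alternatives. The fit was tested on simulated data. Ratios used counts plus 0.5 per exon length. Named pathway genes were the up to 3 with the smallest unadjusted p in each list (1 is not reported here), the nearest genes the 3 with the largest r among genes of mean log2 CPM of at least 0. The genes and lists were chosen with earlier results of these data known. In Python 3.11.15, shares of 75-base transcript windows found in other genes were computed.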

Additional observations from a re-analysis of the deposited data

Results flagged for a closer look

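In 26 sets of 4 libraries (10 genes and 3 ratios in each group), 2 held a value far from the other 3 by Dixon's ratio, where chance gives about 1 in 20. Cyp19a1 was 0.274 CPM in PBS-labelled replicate 4, from 29 counts, against 0.109 to 0.134 CPM in PBS-labelled replicates 1, 2 and 6. The log2 ratio of Hsd3b6 to Hsd3b1 was 8.46 in PBS-labelled replicate 1, against 9.63, 9.62 and 9.70 in replicates 2, 4 and 6, where Hsd3b1 had 23, 2 and 0 counts.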

How the results depend on the processing

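Under all 16 alternatives 0 of the 9 tested enzymes and 0 genes of the 6 wider pathway lists were called. Over all genes, edgeR called 73 higher and 1 lower; DESeq2 called 270 and 71, and library-size scaling 2 lower. Leaving out single libraries gave 0 to 115 higher and 0 to 5 lower, and 0 to 13 of the 13 interferon-gamma genes higher, against 5 by limma voom. That count was 0 in both directions when any 1 library other than DT-labelled replicate 1 and PBS-labelled replicate 4 was left out. Over all genes the median log2 fold change was 0.12 with library-size scaling and 0.01 with TMM. Of the 9 enzymes, 7 to 9 were negative under the alternatives planned.

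Log2 fold changes near 0 changed sign: Cyp19a1 was -0.015 and Srd5a1 -0.10 by limma voom (which also gave -1.41 for Star, -0.91 for Hsd3b6, -0.54 for Hsd11b1 and -1.93 for Hsd17b2), and leaving out single libraries gave -0.12 to 0.46 for Cyp19a1, -0.15 to 0.29 for Srd5a1 and -2.57 to 0.025 for Hsd3b6. PBS-labelled replicate 2 moved Star, whose range was -2.75 to -1.0, and Hsd17b2, whose range was -3.71 to -1.97. Ranges for the ratio differences were -1.04 to 0.21 for Hsd3b6 to Hsd3b1, -1.37 to 0.12 for Hsd11b2 to Hsd11b1 and -3.17 to -0.91 for Hsd17b2 to Cyp19a1. Hsd11b2 ran from -1.27 to -0.70 with single libraries left out. The cause was not tested.

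2 further settings were chosen after seeing the data. Without PBS-labelled replicates 1 and 2, 0 genes were called higher (0 interferon-gamma genes), and log2 fold changes were 0.15 for Star, 1.17 for Hsd3b6, 0.10 for Hsd11b1, -0.24 for Cyp19a1 and 0.48 for Hsd17b2, with a Hsd17b2 to Cyp19a1 difference of 0.63. Without these and DT-labelled replicate 1 they were 0.15 for Star, 0.21 for Cyp11a1, 0.44 for Hsd11b1 and 0.78 for Hsd17b2, with a difference of 0.67.

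Titles share the replicate numbers 1 and 4, and nothing says that a number marks a shared litter or day. The title endings S1 to S4 each lie within 1 group and were not modelled, and PBS-labelled replicates 1 and 2 share the ending S1. Deviations from the group means correlated at -0.62 between the libraries numbered 1 and at 0.35 between those numbered 4. With the replicate block on these 4 libraries, 0 genes were called in either direction, including 0 interferon-gamma genes, and values were -0.21 for Hsd11b2, against -0.90 in all 8 libraries, -0.92 for Star, -0.66 for Cyp11a1, -4.35 for Akr1c18, -1.05 for Hsd11b1, -2.02 for Hsd17b2, 0.32 for Hsd3b6, -0.63 for Cyp19a1, -0.49 for Srd5a1, 1.30 for Hsd3b6 to Hsd3b1 and 0.85 for Hsd11b2 to Hsd11b1.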
